A study of Homo sapiens with 6 samples.

Results

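The genes CYP1A1, CYP1B1, TIPARP, LMCD1 and ALDH3A1 are targets of the aryl hydrocarbon receptor, and they were followed here in HCC-LM3 cells, a metastatic line grown from a human liver cancer. They are 5 of the 23059 genes in the deposited tables and were found by symbol. They were selected on their fold change between apigenin and DMSO in these same libraries, so their own difference between the groups is given below as a description, with no test. Of the 6 RNA-seq libraries, 3 came from cells given apigenin, a plant flavone, and 3 from cells given DMSO, the vehicle. All 6 came from the same single line with no genetic change named, and the sources used here do not give the dose or the length of treatment. The sample titles call the libraries biological replicates and do not say what was replicated, so the p-values measure the spread between these libraries only.

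The aryl hydrocarbon receptor is a ligand-activated transcription factor that waits in the cytosol with the chaperone HSP90. Once a planar aromatic ligand binds, it moves into the nucleus, pairs with ARNT and binds DNA elements built around the core GCGTG. Its best known targets in liver are enzymes that oxidise and conjugate foreign compounds, together with TIPARP, an enzyme that marks the receptor with ADP-ribose and damps its activity.

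The receptor's core motif was looked for in the RefSeq promoter windows of the genes (build GRCh38.p14), which run from 250 bases before to 50 bases after the transcription start. CYP1A1, LMCD1 and TIPARP were matched, TIPARP with 3 windows, and CYP1B1 and ALDH3A1 were not. The 250 bases before the start are shown for CYP1A1 and for the first TIPARP window because these hold the core, and for LMCD1 because its window does not. Capitals mark GCGTG, or CACGC where the core lies on the other strand. The stretches are chr15:74725529-74725778 on the minus strand for CYP1A1, chr3:156674340-156674589 on the plus strand for TIPARP and chr3:8501573-8501822 on the plus strand for LMCD1.
CYP1A1: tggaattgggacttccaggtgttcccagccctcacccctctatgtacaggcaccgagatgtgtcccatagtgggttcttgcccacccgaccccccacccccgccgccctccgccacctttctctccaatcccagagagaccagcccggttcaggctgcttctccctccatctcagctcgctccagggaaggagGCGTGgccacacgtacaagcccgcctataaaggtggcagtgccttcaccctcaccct
TIPARP: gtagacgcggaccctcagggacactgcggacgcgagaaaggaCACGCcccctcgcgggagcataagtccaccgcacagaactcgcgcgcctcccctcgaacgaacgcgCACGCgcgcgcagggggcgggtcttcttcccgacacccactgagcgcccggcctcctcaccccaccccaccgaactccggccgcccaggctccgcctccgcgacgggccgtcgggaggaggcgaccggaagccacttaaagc
LMCD1: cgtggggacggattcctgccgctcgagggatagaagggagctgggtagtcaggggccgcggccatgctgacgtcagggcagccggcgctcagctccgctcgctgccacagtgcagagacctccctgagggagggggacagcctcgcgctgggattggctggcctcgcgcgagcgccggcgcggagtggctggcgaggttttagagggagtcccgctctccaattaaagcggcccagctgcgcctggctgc

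The CYP1A1 window held 1 core, which began 57 bases before the start on the gene's own strand. The first TIPARP window held 2 cores on the other strand, at positions -208 and -142 from the start. The other 2 TIPARP windows and the LMCD1 window held none. The longer motif TNGCGTG, searched on both strands, was in 0 of these 5 windows. Sequence outside the windows was not searched, so these results do not show whether either motif lies further from the start. The short core is common, as 36.5% of all 35116 RefSeq windows hold it on either strand, and 42.8% of the 23086 windows of genes in the tables do. TNGCGTG, which contains the core, was in 5.5% of all windows. GC content was 61.0% in the CYP1A1 window, 71.0% in the first TIPARP window and 69.7% in the LMCD1 window, against a median of 58.7% over all windows.

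The apigenin libraries held 33882145 to 37983636 counts and the DMSO libraries 34647650 to 37276429, so that 3 counts, the limit a count of 0 allows, stood for 0.079 to 0.0885 CPM (counting error only). Levels are CPM, counts scaled to a common library size with TMM factors, or deposited FPKM where genes are compared per length. Over all genes, edgeR's quasi-likelihood test called a gene at a Benjamini-Hochberg adjusted p below 0.05. Of 15173 genes tested, 419 were called higher with apigenin (2.76%) and 641 lower (4.22%), 6.99% in all, and the median log2 fold change was 0.00. The 8 hepatocyte and hepatoma markers included the keratin genes KRT8 and KRT18, and all 8 had over 10 reads in some library. Their summed FPKM was 1696 to 1927 with apigenin and 1910 to 1962 with DMSO. All 8 had a log2 fold change below 0, from -1.35 to -0.0086, with a median of -0.84. By edgeR 3 fell (37.5%, against 4.22% of all genes), namely ALB (serum albumin, -1.22), SERPINA1 (-1.03) and APOB (-0.75). At an unadjusted edgeR p below 0.05, 5 were lower. Markers of other cell types summed to 50.5 to 54.7 FPKM with apigenin and 51.3 to 55.2 with DMSO for immune cells, 13.4 to 15.0 with apigenin and 16.2 to 17.1 with DMSO for endothelium, and at most 0.183 with apigenin and 0.185 with DMSO for fibroblasts. PTPRC, which marks leukocytes, and CD3E, which marks T cells, had 10 reads or fewer in every library. The immune sum thus came almost wholly from CD68 and LYZ, the other immune markers listed. These 2 had log2 fold changes of -1.35 and 0.01, neither called, so the level sum does not describe both.

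All 5 genes were higher with apigenin, and in none did the apigenin and DMSO libraries overlap. This count was fixed by how the genes were chosen and is not read against the 2.76% of all genes called higher. The difference spanned a wide range, with a 31.8-fold difference for CYP1A1 and a 1.17-fold difference for ALDH3A1. Counts of RNA from whole cultures cannot tell more expressing cells from more RNA per cell.

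CYP1A1, on chromosome 15 (74719542 to 74725528), encodes the P450 enzyme that oxidises polycyclic aromatic hydrocarbons. It had 5678, 5945 and 5505 reads in apigenin libraries 1, 2 and 3, against 180, 218 and 159 reads in DMSO libraries 1, 2 and 3. In CPM these were 167, 155 and 164 with apigenin, against 4.84, 5.83 and 4.60 with DMSO. The lowest apigenin library stood 26.6-fold above the highest DMSO library. Mean levels were 162 ± 6.30 CPM with apigenin and 5.09 ± 0.651 CPM with DMSO (SD, n = 3 each), a log2 fold change of 4.99 ± 0.091 (SE). Among the genes tested it had the second highest fitted fold change, below MT1M, a metallothionein with 0 reads in DMSO libraries. Its FPKM ranked 931 of 15173 with apigenin and 9956 with DMSO, so that a gene in the lower part of the order with DMSO stood near the top with apigenin.

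CYP1B1, on chromosome 2 (38067509 to 38076151), encodes a P450 that oxidises oestrogens and aromatic hydrocarbons. Its levels were 546, 599 and 533 CPM with apigenin, against 70.3, 64.3 and 65.4 CPM with DMSO. Every apigenin library was far above every DMSO library, and the groups did not overlap. The means were 559 ± 34.7 CPM with apigenin and 66.7 ± 3.19 CPM with DMSO, an 8.39-fold difference (log2 fold change 3.07 ± 0.066). This was rank 5 among the fold changes of all genes tested.

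TIPARP, on chromosome 3 (156674590 to 156706770), encodes the ADP-ribosyltransferase that acts back on the receptor. It had 143, 151 and 133 CPM with apigenin, against 37.4, 37.6 and 41.4 CPM with DMSO. All 3 apigenin libraries were high, with library 3 the lowest of them and still above all DMSO libraries. The log2 fold change was 1.88 ± 0.071, or 3.67-fold, which was rank 39. TIPARP overlaps the antisense gene TIPARP-AS1, which had 0.977 ± 0.339 CPM with apigenin and 0.856 ± 0.136 CPM with DMSO, far below TIPARP in either group.

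LMCD1, also on chromosome 3 (8501823 to 8574668), encodes a LIM domain protein that restrains GATA factors. It had 73.5, 68.1 and 75.9 CPM with apigenin, against 40.1, 42.2 and 39.7 CPM with DMSO. The apigenin libraries lay close together, as did the DMSO libraries, with a gap between the groups. The log2 fold change was 0.83 ± 0.069, or 1.78-fold, which was rank 366. LMCD1 overlaps the non-coding gene LOC107986009, which had 1.08 ± 0.364 CPM with apigenin and 1.39 ± 0.117 CPM with DMSO.

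ALDH3A1, on chromosome 17 (19737984 to 19748298), encodes an aldehyde dehydrogenase that oxidises aromatic and medium-chain aldehydes. Its levels were 868, 770 and 944 CPM with apigenin, against 735, 747 and 728 CPM with DMSO. The groups came within 1.03-fold of each other, since apigenin library 2 was only just above DMSO library 2. Means were 861 ± 87.2 CPM with apigenin and 737 ± 9.64 CPM with DMSO. The log2 fold change was 0.22 ± 0.065, or 1.17-fold, and ranked 2495. The spread of the apigenin libraries, a coefficient of variation of 10.1%, was wider than that of the DMSO libraries, 1.31%.

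**Figure D1:**
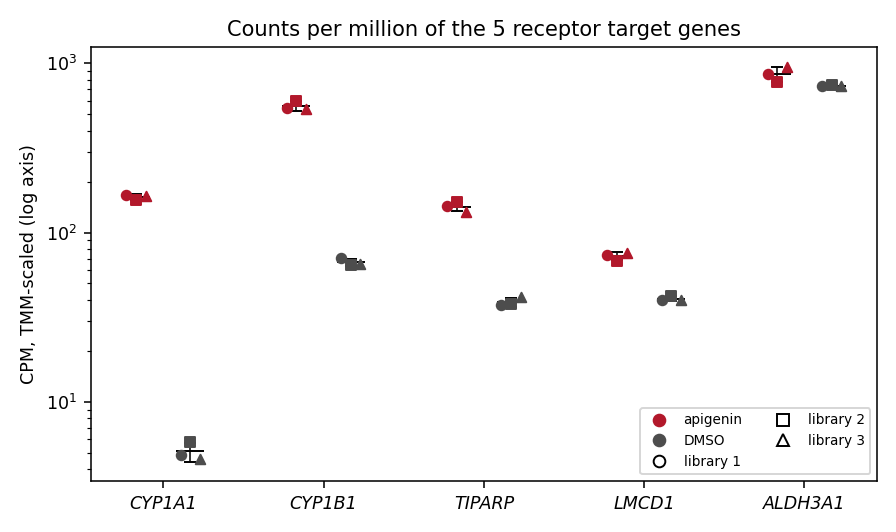
CPM (log axis) of the 5 receptor target genes in each apigenin (red) and DMSO (grey) library, with black bars for mean ± SD of 3 libraries. The distance between the groups narrows in steps from CYP1A1 to ALDH3A1, where the lowest apigenin library is 1.03-fold above the highest DMSO library.

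The order of the 5 fold changes was the same in each apigenin library. Neighbours in that order were separated by 1.92 ± 0.112 log2 units between CYP1A1 and CYP1B1, 1.19 ± 0.0968 between CYP1B1 and TIPARP, 1.04 ± 0.0990 between TIPARP and LMCD1, and 0.61 ± 0.0949 between LMCD1 and ALDH3A1 (SE, taking the genes as independent). The log2 differences of the single apigenin libraries from the DMSO mean overlapped for none of these 4 pairs. These values describe the genes as chosen.

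Per length, the order of the levels differed between the groups. With apigenin, ALDH3A1 was highest at 216 ± 19.7 FPKM, followed by CYP1B1 at 107 ± 7.69, CYP1A1 at 62.2 ± 2.13, TIPARP at 32.7 ± 2.40 and LMCD1 at 7.48 ± 0.341 FPKM. With DMSO, the order was ALDH3A1 at 185 ± 2.96, CYP1B1 at 12.8 ± 0.605, TIPARP at 8.90 ± 0.493, LMCD1 at 4.20 ± 0.150 and CYP1A1 at 1.96 ± 0.256 FPKM. No 2 neighbours in either order had overlapping libraries. CYP1A1 was thus the lowest of the 5 with DMSO and the middle one with apigenin.

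ALDH3A1 made up 51.1, 47.3 and 53.9% of the summed FPKM of the 5 genes in the apigenin libraries, against 86.8, 87.2 and 86.8% in the DMSO libraries. The sum itself was 428, 413 and 435 FPKM with apigenin, against 213, 216 and 211 FPKM with DMSO. In FPKM, CYP1B1 accounted for the largest part of that difference (94.3), followed by CYP1A1 (60.3), ALDH3A1 (30.8), TIPARP (23.8) and LMCD1 (3.28). ALDH3A1, with the lowest fold change, thus had a larger difference in FPKM than TIPARP. The ratio of CYP1B1 to CYP1A1 in FPKM was 1.63, 1.92 and 1.62 with apigenin, against 7.24, 5.50 and 7.08 with DMSO. All 3 apigenin libraries had a lower ratio than any DMSO library.

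**Figure D2:**
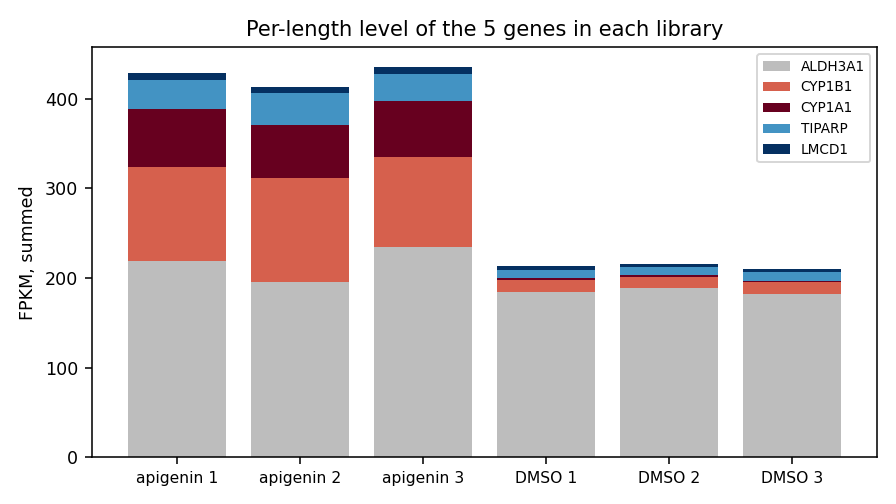
Summed FPKM of the 5 receptor target genes in each apigenin and DMSO library, with 1 colour per gene. ALDH3A1 fills 47.3 to 53.9% of the bar in the apigenin libraries and 86.8 to 87.2% in the DMSO libraries, and the sums are 413 to 435 FPKM with apigenin and 211 to 216 FPKM with DMSO.

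Within the apigenin group, the genes did not follow 1 order of libraries. Library 2 was the highest and library 3 the lowest for CYP1B1 and TIPARP, whereas library 3 was the highest and library 2 the lowest for LMCD1 and ALDH3A1. CYP1A1 was highest in library 1 and lowest in library 2. The apigenin libraries also differed in how log2 levels, relative to the DMSO mean, changed with each doubling of gene length, with slopes of -0.071, -0.021 and -0.147 in libraries 1, 2 and 3, against 0.001, -0.005 and 0.003 in the DMSO libraries. Removing this trend gave log2 fold changes of 4.93 for CYP1A1, 3.10 for CYP1B1, 1.88 for TIPARP and 0.22 for ALDH3A1, close to those above. LMCD1, whose gene model of 9685 nucleotides is the longest of the 5, moved to 0.98. The part of the length slope in the order of the libraries was not tested.

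**Figure D3:**
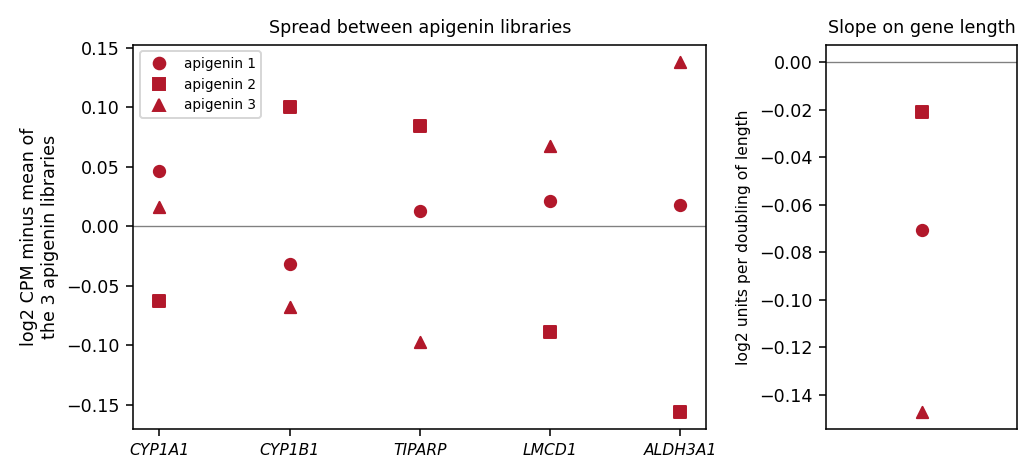
Left, log2 CPM of each apigenin library minus the mean of the 3 apigenin libraries for the 5 genes; right, slope of each apigenin library on gene length in log2 units per doubling. Apigenin 2 (square) and apigenin 3 (triangle) swap places between CYP1B1 with TIPARP and LMCD1 with ALDH3A1, and their slopes are -0.021 and -0.147.

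Other textbook targets of the receptor did not all move one way. Like the other lists below, their list was chosen with earlier results of these data known. The shares of these lists against all genes are therefore a description, not independent support. Of 24 listed, 22 were in the tables and 19 were tested; AHRR and VAV3 were not analysed here. By edgeR's quasi-likelihood test, 7 of the 19 rose (36.8%, against 2.76% of all genes), 2 fell (10.5%, against 4.22%) and 10 were not called. Their median log2 fold change was 0.15, against 0.00 for all genes, with 14 above 0 and 5 below.

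SLC7A5, the transporter of large neutral amino acids, rose to 520 ± 26.4 CPM with apigenin, against 307 ± 10.5 CPM with DMSO (log2 fold change 0.76 ± 0.056, n = 3 each, edgeR adjusted p = 2.95e-06). EREG, which encodes the EGF receptor ligand epiregulin, rose to 91.0 ± 5.41 CPM, against 55.5 ± 1.82 CPM with DMSO (0.71 ± 0.067, edgeR adjusted p = 3.04e-05). SOS1, an exchange factor that loads RAS with GTP, rose to 146 ± 22.5 CPM, against 87.6 ± 4.16 CPM with DMSO (0.74 ± 0.091, edgeR adjusted p = 0.000343). In each of these genes every apigenin library was above every DMSO library.

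NFE2L2, which encodes the antioxidant regulator NRF2, averaged 136 ± 3.66 CPM with apigenin and 97.1 ± 5.35 CPM with DMSO (0.49 ± 0.061, edgeR adjusted p = 0.000394). The cytokine gene IL1B had the highest fold change of the 7, at a low level of 6.16 ± 1.41 CPM with apigenin and 3.19 ± 0.466 CPM with DMSO (0.95 ± 0.198, edgeR adjusted p = 0.0123). STC2, a secreted stanniocalcin, had 44.4 ± 1.95 CPM with apigenin and 35.5 ± 0.656 CPM with DMSO (0.32 ± 0.071, edgeR adjusted p = 0.0157). The call of IL1B was lost without apigenin library 1, DMSO library 1 or DMSO library 3 (adjusted p up to 0.0856), and that of STC2 without any 1 of the DMSO libraries (up to 0.0942).

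Among the conjugating enzymes, UGT1A1, which attaches glucuronic acid to bilirubin, rose to 113 ± 11.4 CPM with apigenin, against 81.8 ± 3.73 CPM with DMSO (0.47 ± 0.075, edgeR adjusted p = 0.0024). UGT1A6, which acts on small phenols, fell to 45.3 ± 2.70 CPM, against 55.4 ± 1.83 CPM with DMSO (-0.29 ± 0.070, edgeR adjusted p = 0.0265). UGT1A genes share their later exons, and how the counting treated reads from those exons is not known, so both values are uncertain. The UGT1A6 call was lost without apigenin library 1 or any 1 of the DMSO libraries (up to 0.148). NEDD9, a focal adhesion scaffold, fell to 7.94 ± 1.06 CPM, against 13.0 ± 1.62 CPM with DMSO (-0.71 ± 0.135, edgeR adjusted p = 0.007), and was no longer called without apigenin library 1 or DMSO library 3 (up to 0.0564).

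NQO1, a quinone reductase, was high in both groups at 1994 ± 150 CPM with apigenin and 1816 ± 46.2 CPM with DMSO (0.13 ± 0.055, edgeR adjusted p = 0.15), and was not called. CYP2S1 had a log2 fold change of 0.16, the transporter gene ABCG2 0.15 and the glutathione transferase gene GSTA1 -0.16, none of them called. With the length trend removed, ABCG2 was called higher (0.19, edgeR adjusted p = 0.00794) and GSTA1 lower (-0.25, edgeR adjusted p = 0.0168). CYP1A2, the closest relative of CYP1A1 and the main P450 of this family in adult liver, had 10, 13 and 0 reads in the apigenin libraries, against 0, 0 and 4 reads in the DMSO libraries. It stayed below the filter on low counts, and its groups overlapped. The 6 alternatives that tested it did not call it (adjusted p 0.115 to 0.533).

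**Figure D4:**
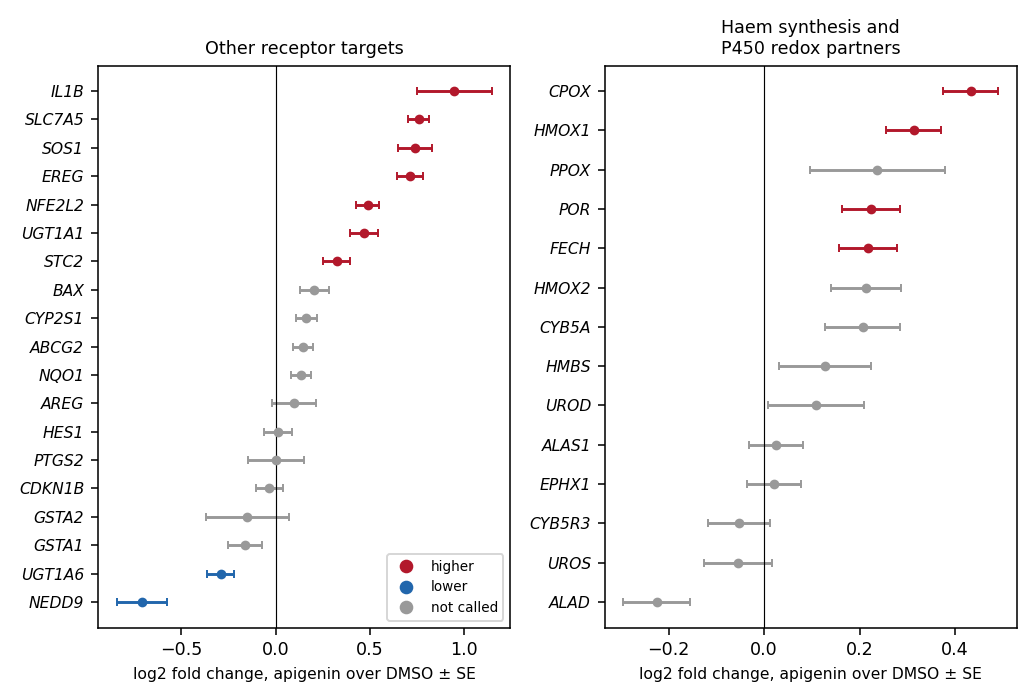
Log2 fold change, apigenin over DMSO ± SE. Left, the 19 other receptor targets tested. Right, the 14 genes listed for haem synthesis and P450 redox, a set that includes HMOX1, HMOX2 and EPHX1. Red genes were called higher, blue lower and grey not called. Red genes number 7 on the left and 4 on the right, and blue genes 2 and 0.

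The receptor's own gene fell. AHR had 143 ± 8.18 CPM with apigenin and 191 ± 5.82 CPM with DMSO (-0.42 ± 0.060, edgeR adjusted p = 0.00117), and ARNT2 had 7.77 ± 0.715 CPM with apigenin and 13.4 ± 1.46 CPM with DMSO (-0.79 ± 0.126, edgeR adjusted p = 0.0024). These were 2 of 8 receptor and chaperone genes tested (25%, against 4.22% of all genes called lower), and none rose by edgeR, with 2 higher at an unadjusted p below 0.05 and 1 called higher by DESeq2. ARNT, the receptor's partner on DNA, had a log2 fold change of -0.14 (not called).

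P450 enzymes carry haem and need electrons, and genes of haem synthesis and breakdown and of the P450 redox partners were followed as well. The epoxide hydrolase gene EPHX1 was listed with them. Of 14 tested, 4 rose (28.6%, against 2.76% of all genes) and none fell by edgeR, with 1 lower at an unadjusted p below 0.05 and 1 called lower by DESeq2. The median log2 fold change was 0.17. CPOX, an enzyme of the late steps of haem synthesis, rose to 133 ± 4.05 CPM with apigenin, against 98.2 ± 2.90 CPM with DMSO (0.43 ± 0.058, edgeR adjusted p = 0.000722). HMOX1, which breaks haem down, rose to 362 ± 17.2 CPM, against 291 ± 12.7 CPM with DMSO (0.31 ± 0.057, edgeR adjusted p = 0.00554).

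FECH, which inserts iron to form haem, and POR, the reductase that passes electrons to P450 enzymes, each had a log2 fold change of 0.22 (SE 0.061 each). FECH averaged 85.4 ± 2.52 CPM with apigenin and 73.5 ± 2.16 CPM with DMSO (edgeR adjusted p = 0.0475). POR averaged 235 ± 16.7 CPM with apigenin and 201 ± 1.39 CPM with DMSO (edgeR adjusted p = 0.0408). Both calls were lost without apigenin library 1 or any 1 of the DMSO libraries (adjusted p up to 0.195 for FECH and 0.179 for POR), and that of HMOX1 without apigenin library 1, DMSO library 1 or DMSO library 3 (up to 0.068). ALAS1, which catalyses the rate-limiting step of haem synthesis in liver, had a log2 fold change of 0.03 (not called).

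Of 64 genes tested that are relatives of the 5 by family or enzymes that remove ADP-ribose, 3 rose and 3 fell, against 2.76% and 4.22% of all genes, and their median log2 fold change was -0.03. Of 27 other P450 genes tested, 2 rose (7.41%, against 2.76% of all genes) and 3 fell (11.1%, against 4.22%). CYP3A5, a drug-oxidising P450 of the liver, fell to 69.6 ± 6.04 CPM with apigenin, against 92.3 ± 0.277 CPM with DMSO (-0.41 ± 0.070, edgeR adjusted p = 0.00363). CYP24A1, which inactivates vitamin D, fell to 155 ± 9.22 CPM, against 199 ± 1.81 CPM with DMSO (-0.36 ± 0.059, edgeR adjusted p = 0.00277). CYP51A1 of sterol synthesis, named after its values were seen, also fell (-0.25 ± 0.063, edgeR adjusted p = 0.0326), but not without apigenin library 1 or any 1 of the DMSO libraries (up to 0.178).

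Both P450 genes that rose were low. CYP39A1, which hydroxylates oxysterols, had 2.86 ± 0.499 CPM with apigenin and 1.49 ± 0.142 CPM with DMSO (0.94 ± 0.258, edgeR adjusted p = 0.0438). CYP19A1, the aromatase that makes oestrogens, had 6.45 ± 1.24 CPM with apigenin and 4.17 ± 0.227 CPM with DMSO (0.63 ± 0.171, edgeR adjusted p = 0.0422). The call of CYP39A1 was lost on leaving out any 1 of the 6 libraries (adjusted p up to 0.161), and that of CYP19A1 on leaving out any library but apigenin 2 (up to 0.159).

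Of 15 PARP family genes tested beside TIPARP, PARP10, another mono-ADP-ribosyltransferase, was the 1 that rose (6.67%, against 2.76% of all genes), with 59.2 ± 3.08 CPM with apigenin and 44.4 ± 3.09 CPM with DMSO (0.42 ± 0.074, edgeR adjusted p = 0.00477). Of 12 other aldehyde dehydrogenase genes tested, edgeR called 0, with 2 at an unadjusted p below 0.05, and DESeq2 called 1 lower. ALDH3A2, the nearest relative of ALDH3A1 and its neighbour on chromosome 17, had 420 ± 4.60 CPM with apigenin and 398 ± 4.56 CPM with DMSO (0.08 ± 0.049, edgeR adjusted p = 0.353).

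Genes lying within 100 kb of the 5 were tested to see whether the surrounding region moved with them. Of 17 in the tables, 13 were tested and 3 rose (23.1%, against 2.76% of all genes). None fell by edgeR, with 0 lower at an unadjusted p below 0.05 and 0 called lower by DESeq2. RMDN2, which encodes a microtubule-associated protein, ends 371 nucleotides from CYP1B1. It had 14.3, 17.3 and 18.5 CPM with apigenin, against 7.16, 7.09 and 8.54 CPM with DMSO, and the groups did not overlap. Its log2 fold change was 1.14 ± 0.130 (edgeR adjusted p = 0.000177), or 2.20-fold, and it kept its call on leaving out each library in turn (adjusted p up to 0.00403).

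CYP1B1-AS1, an antisense RNA gene beside CYP1B1, had 68, 75 and 47 reads with apigenin, against 27, 31 and 14 reads with DMSO (1.44 ± 0.383, edgeR adjusted p = 0.0384). EDC3, an mRNA decapping factor 23518 nucleotides from CYP1A1, had 68.9 ± 4.20 CPM with apigenin and 57.0 ± 1.64 CPM with DMSO (0.27 ± 0.068, edgeR adjusted p = 0.0298). Both calls were lost without apigenin library 1 or any 1 of the DMSO libraries (adjusted p up to 0.155 for CYP1B1-AS1 and 0.146 for EDC3). In the GENCODE 29 annotation, RMDN2 and CYP1B1 lie on opposite strands and overlap by 170 nucleotides at their ends, and CYP1B1-AS1 overlaps CYP1B1 by 36456 nucleotides. In RefSeq no gene overlaps CYP1B1, and CYP1B1-AS1 lies 54954 nucleotides from it. No source states a strand setting for the counting, and the gene models it used were not established here. Whether reads of CYP1B1 were counted to RMDN2 or CYP1B1-AS1 is therefore not known. LMCD1-AS1, which in GENCODE 29 spans all of LMCD1 on the other strand, was low and was not called. It had 0.446 ± 0.433 CPM with apigenin and 0.865 ± 0.283 CPM with DMSO.

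**Figure D5:**
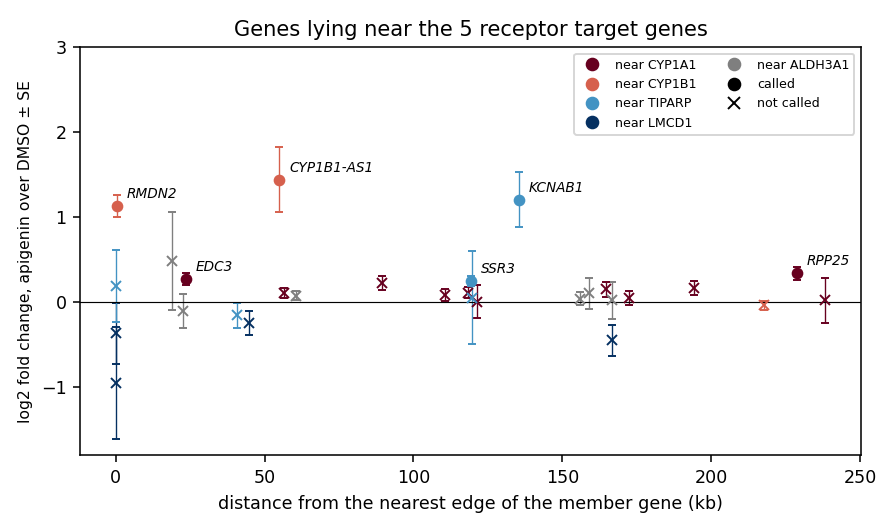
Log2 fold change, apigenin over DMSO ± SE, of genes within 250 kb of the 5 receptor target genes against their distance in kb from the gene's edge; circles were called and crosses were not, and the colour names the gene they lie near. Within 100 kb, RMDN2 (1.14), CYP1B1-AS1 (1.44) and EDC3 (0.27) were called.

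For each of the 5 genes, the most similar patterns were found as the smallest Euclidean distance over the 6 libraries in log2 CPM minus the gene's DMSO mean, as a description. The search covered tested genes whose mean reached 1 CPM. CYP1A1 and CYP1B1 had none of these within a distance of 1. The nearest to CYP1A1 were MT1G, a metallothionein, at 4.08 and MB, which encodes myoglobin, at 4.26, with log2 fold changes of 2.68 ± 0.462 and 2.75 ± 0.381. MB (1.27) and MB21D2 (1.70, log2 fold change 2.12 ± 0.149) were the nearest to CYP1B1.

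TIPARP was matched more closely, by LOC112268189 at a distance of 0.343 and by the adhesion receptor gene ADGRF1 at 0.459, with log2 fold changes of 1.89 ± 0.115 and 1.98 ± 0.143. TIPARP had 11 genes within a distance of 1 and LMCD1 850. Nearest to LMCD1 were CLDND1, a claudin-like gene, at 0.121 and the early response gene IER3 at 0.191, each with a log2 fold change of 0.85. ALDH3A1 had 11072 genes within a distance of 1, with ATRAID at 0.0319 and the cystatin C gene CST3 at 0.0483 the nearest, and neither of these was called.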

How the data were processed

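Libraries of TRIzol-extracted total RNA were prepared with the kit VAHTS Universal V6, per the labels' protocols. Reads were handled with fastp, HISAT2 and HTSeq on GRCh38 (hg38), per the submitters' processing notes; the sources used here give no versions and no strand setting. The authors deposited, for each of the 6 libraries, raw read counts per gene symbol and FPKM values. For 100% of the 23059 genes, a deposited FPKM is the gene's count over its length and the library total (relative tolerance 0.0001).

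Groups were taken from the titles and compared with edgeR 4.0.16 in R 4.3.3 (quasi-likelihood test, TMM factors, default filter on low counts, Benjamini-Hochberg adjustment over 15173 genes, threshold 0.05). Each SE was the fitted log2 fold change divided by the square root of F. Log2 CPM used a prior count of 2. Alternatives were DESeq2 1.42.0, other scaling and filters, a length trend removed as offsets (lowess, span 0.3), the replicate number as a block, each library left out, and limma 3.58.1 on log2 FPKM. Limma used a pseudocount of 1 or 0.1 on genes with 0.5 FPKM in 3 libraries, or a pseudocount of 1 on all genes. The edgeR step was also run on simulated counts that lacked the length slopes of the apigenin libraries. The outcome of that run is not given, and no result here rests on it. Chi-square over its degrees of freedom was 8.81 to 27.48 between apigenin and 4.35 to 5.15 between DMSO libraries, above counting noise, so none was a copy.

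Positions, distances to neighbours and RefSeq overlaps came from RefSeq GRCh38, which held 21735 of the symbols. Strands and overlap lengths came from GENCODE 29. The 5 genes and all lists were chosen with earlier results of these data known. Named genes were the 5, every called gene of the lists of other receptor targets and of the receptor with its partners, up to 4 called genes (mean of 1 CPM or more) of each other list by size of fold change, and the 2 nearest patterns per gene. Other genes were named after their values were seen, to give levels.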

Additional observations from a re-analysis of the deposited data

How the results depend on the processing

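The 5 receptor target genes stayed higher with apigenin under all 16 alternatives. Their log2 fold changes ranged over 4.42 to 5.10 for CYP1A1, 2.97 to 3.11 for CYP1B1, 1.76 to 1.92 for TIPARP, 0.70 to 0.98 for LMCD1, and 0.15 (without apigenin library 3) to 0.30 (without apigenin library 2) for ALDH3A1. The lowest values of the first 4 came from log2(FPKM + 1), which understates the change of low genes.

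Counts of called genes moved more, and the cause was not tested. All genes called higher numbered 419, with 658 by DESeq2, 865 with no filter, 715 with the length trend removed and 78 by limma on log2(FPKM + 1) with no filter. All genes called lower numbered 641, with 1096 with no filter, 303 by limma on log2(FPKM + 1), 289 on log2(FPKM + 0.1) and 60 on log2(FPKM + 1) with no filter. Leaving out each library gave 103 to 1344 higher and 157 to 1546 lower, with the most without apigenin library 2.

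Limma on log2(FPKM + 1) with no filter called 3 other receptor targets higher and 0 lower (7 and 2 by edgeR), 1 receptor and P450 partner gene higher and 0 lower (4 and 2), 0 relatives (with ADP-ribose erasers) higher and 0 lower (3 and 3) and 0 neighbours higher (3). The 2 other limma fits each called 2 partner genes higher. Relatives called lower were 5 by DESeq2, 7 with no filter and 7 with the length trend removed. Neighbours within 250 kb called higher were 6. Leaving out each library gave 5 to 10 other targets higher and 0 to 3 lower, 1 to 8 partner genes higher and 2 to 4 lower, 1 to 3 relatives higher and 2 to 9 lower, and 1 to 4 neighbours higher and 0 lower. The longer motif TNGCGTG was in the windows of 0 of the 3 genes with a window, against 2 for GCGTG. Of the 16670 genes in the tables with a window, 1372 held TNGCGTG and 8335 held GCGTG. Sequence outside the windows was not searched. Of the 32 other named genes, 0 reversed; over all their alternatives, 429 values kept their side of the threshold, 73 lost the call and 6 gained it. Depth limits genes such as CYP1A2, with 0 to 13 reads a library, which fell below the default filter.

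Same-numbered libraries did not deviate together (correlations of -0.017, -0.019 and -0.048). No pairing by replicate number was seen, although these correlations cannot exclude that the number marks a shared step. With the replicate number as a block, 455 genes were called higher and 776 lower. This fit called 7 other targets higher and 2 lower, and 3 partner genes higher and 2 lower. It called 2 relatives higher and 4 lower, and 3 neighbours higher.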

Other observations

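Genes of enzymes that remove ADP-ribose were measured as well. These data do not show which of them act on the ADP-ribose that TIPARP attaches. All 5 tested had a log2 fold change above 0, with a median of 0.30 against 0.00 for all genes. By edgeR's quasi-likelihood test none was called, with 2 at an unadjusted p below 0.05; DESeq2 called 0 and limma on log2(FPKM + 1) called 1 higher. Of the 5 PET-LIM relatives of LMCD1, edgeR called 0, with 1 at an unadjusted p below 0.05, and DESeq2 called 0. Their median log2 fold change was -0.04.

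Out to 250 kb, 29 neighbours of the 5 genes were tested and 6 rose (20.7%, against 2.76% of all genes). Beyond those within 100 kb these were KCNAB1, a potassium channel subunit gene near TIPARP, SSR3, a translocon-associated gene near TIPARP, and RPP25, an RNase P subunit gene near CYP1A1. KCNAB1 had 2.63 ± 0.746 CPM with apigenin and 1.14 ± 0.351 CPM with DMSO (log2 fold change 1.21 ± 0.324, edgeR adjusted p = 0.04). SSR3 had 211 ± 6.33 CPM with apigenin and 177 ± 9.05 CPM with DMSO (0.25 ± 0.058, edgeR adjusted p = 0.0212). RPP25 had 70.5 ± 6.17 CPM with apigenin and 55.6 ± 2.12 CPM with DMSO (0.34 ± 0.074, edgeR adjusted p = 0.0149). All 3 calls were lost without apigenin library 1 or any 1 of the DMSO libraries, and that of KCNAB1 also without apigenin library 3 (adjusted p up to 0.162 for KCNAB1, 0.155 for SSR3 and 0.123 for RPP25).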
